A study of Mchenga conophoros with 13 samples.

Results

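The 6 genes described here, which neurons transcribe soon after excitation or which are linked to that response, were egr1, fosl2, jund, dusp5, gadd45b and irs2. They were chosen by symbol, as 6 of the 32471 genes of the count matrices, and belong to a list of 25 genes that the study called IEG-like, drawn from its single-nucleus data because they were expressed together with immediate early genes (IEGs). The rule names symbols and uses no level, but the members were chosen with earlier results of these data known. Other listed genes with a symbol, such as npas4, plk2 and rrad, were not made members. All 6 genes had unique molecular identifiers (UMIs, each marking a captured RNA molecule) in each of the 13 capture areas, with 40176 UMIs in all. Only symbols are given here, and no sequence of these genes was used.

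The study mapped gene expression on coronal telencephalic sections of Mchenga conophoros, a Lake Malawi cichlid whose males build sand castles to court females. The groups were 2 building males, labelled as building before euthanization, and 2 males labelled control. All were adults (>180 days), no strain or genotype was labelled, and the study's methods describe them as size-matched pairs of a building and a control male. Sections of 10 µm lay on Visium capture areas, glass fields of barcoded spots 55 µm wide, each of which can hold several cells. Building male 1 had 1 capture area (C), whereas building male 2, control male 1 and control male 2 had 4 each (A to D).

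IEGs are switched on by signals that follow neuronal excitation, without new protein synthesis, and are widely used to mark recently active neurons. Calcium entry and the ERK kinase cascade act on transcription factors already present at their promoters, and the first products include further transcription factors as well as proteins that dampen the cascade. egr1 encodes a zinc-finger transcription factor. fosl2 and jund encode a Fos and a Jun subunit of AP-1, a dimeric transcription factor. dusp5 encodes a nuclear phosphatase that inactivates ERK, and gadd45b a growth arrest and DNA damage-inducible protein tied in mice to activity-dependent DNA demethylation. irs2 encodes an adaptor that links insulin and insulin-like growth factor receptors to kinases inside the cell. The study counts irs2 among the listed genes that were not known as IEGs before. In fish brains, as in mammals, egr1 is among the standard markers of recent activity.

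After 4 empty spots were set aside, 6751 of 6755 spots and 51779064 UMIs were used. Depth differed between capture areas, from 673104 to 7356317 UMIs per area and from a median of 1225.5 to 11973 UMIs per spot. The lowest median was that of control 1 area C. Spot barcodes repeat between slides by design, and 1631 of 2717 barcodes (60.0%) occurred in more than 1 matrix, so spots were keyed by matrix and barcode. The male was the replicate throughout, since areas and spots of a male are not independent. Spots pool cells, so fewer cells of a type and less RNA per cell cannot be told apart. All marker genes that the matrices hold for neurons, radial glia, oligodendrocytes, microglia and pericytes had UMIs in every male.

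Over all spots of a male, the 6 genes lay in a narrow band. Levels are given as CPM, the UMIs of a gene among 1000000 UMIs of the same spots. egr1 had 376 and 299 CPM in building males, against 343 and 346 CPM in control males. fosl2 had 158 and 125 CPM in building males, against 129 and 129 CPM in control males. For both genes the control males lay between the building males. jund had 106 and 109.6 CPM in building males, against 88.6 and 91.7 CPM in control males, and here the groups did not overlap. dusp5 had 83.1 and 74.0 CPM in building males, against 71.3 and 84.6 CPM in control males. gadd45b had 78.8 and 97.3 CPM in building males, against 103 and 102 CPM in control males. The dusp5 groups overlapped and the gadd45b groups did not. irs2 had 49.4 and 38.6 CPM in building males, against 51.4 and 46.2 CPM in control males, with overlap. The highest male was between 1.19 times (dusp5) and 1.33 times (irs2) the lowest. Counting error alone put the 95% Wilson bounds of a male's level between 87.9% and 114% of its value, the widest for irs2 in building male 1 with 229 UMIs.

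**Figure D1:**
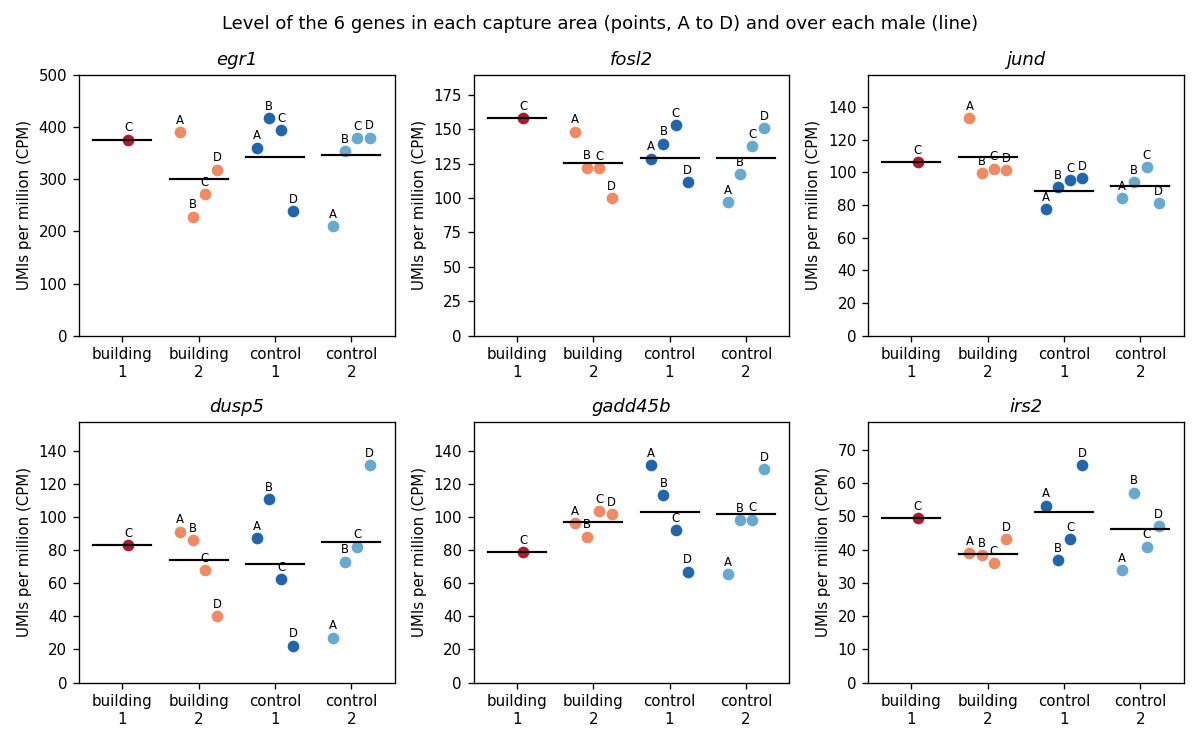
CPM (y axis) of the 6 genes in each capture area (points, areas A to D) and over all spots of each male (horizontal line), with building males in red and orange on the left and control males in blues on the right. dusp5 ranged from 22.4 CPM in control 1 area D to 131 CPM in control 2 area D, whereas the lines of the 4 males lay between 71.3 and 84.6 CPM.

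Across the 13 areas, whose ranges hold differences between males as well as between sections, egr1 ranged from 210.3 to 417 CPM (1.98-fold), fosl2 from 96.9 to 158 CPM (1.63-fold), jund from 77.3 to 133 CPM (1.72-fold), gadd45b from 65.6 to 132 CPM (2.01-fold) and irs2 from 33.8 to 65.4 CPM (1.93-fold). dusp5 spanned the widest range, 5.87-fold. Its lowest areas were control 1 D (22.4 CPM), control 2 A (27.1 CPM) and building 2 D (40.2 CPM), and its highest were control 2 D (131 CPM) and control 1 B (111 CPM). The same letter thus held the highest and the lowest area in different males. The pallial share of spots was 34.6% in control 1 D, 32.4% in control 2 A and 49.3% in building 2 D. In the areas with the most dusp5 it was 71.1% (control 2 D) and 41.2% (control 1 B). The part of this share in the range was not tested.

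UMIs of the 6 genes were spread over many spots. egr1 had a UMI in 67.9% ± 10.7 of spots (SD, n = 4 males), fosl2 in 47.1% ± 11.5, jund in 40.9% ± 14.0, gadd45b in 39.2% ± 12.5, dusp5 in 28.2% ± 9.85 and irs2 in 23.1% ± 5.93. These shares follow depth. In the 5945 spots that could be thinned to 2000 UMIs each they were 42.8% ± 2.05 for egr1, 22.4% ± 2.42 for fosl2, 16.9% ± 2.66 for jund, 16.9% ± 1.41 for gadd45b, 11.9% ± 0.278 for dusp5 and 8.34% ± 0.610 for irs2, and the spread between males shrank for each gene. Of all spots, 758 (11.2%) had no UMI of any of the 6 genes and 198 (2.93%) had a UMI of all 6. The most UMIs in a spot were 37 for egr1, 21 for dusp5, 20 for fosl2, 11 for gadd45b, 10 for jund and 8 for irs2.

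Building and control males were compared on UMIs summed over all spots of a male. This asks whether the 6 genes differed with behavior over the sampled sections, which for building male 1 are those of area C alone. None of the 6 passed the test, and neither did any other gene: 0 of 15532 genes (0%) had an adjusted p under 0.05 by edgeR's quasi-likelihood test with Benjamini-Hochberg adjustment, 306 had an unadjusted p under 0.05, and DESeq2 called 16 genes, none of the 6. The log2 fold change of building over control was -0.04 for egr1 (95% interval -0.42 to 0.33), 0.11 for fosl2 (-0.27 to 0.49) and 0.25 for jund (-0.05 to 0.54). It was -0.01 for dusp5 (-0.38 to 0.36), -0.23 for gadd45b (-0.60 to 0.14) and -0.17 for irs2 (-0.59 to 0.24). With 2 males against 2, intervals of this width do not show that the groups were alike, and an exact two-sided permutation test could not give a p below 0.333.

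For jund and gadd45b, both building males lay on the same side of both control males, higher for jund and lower for gadd45b. This held for 2 of the 6 genes and for 25.5% of all 15532 genes, so the count of 2 is close to the background. The summed region markers were also apart between the groups. The sums of radial glia, oligodendrocyte, microglia, pericyte and neuron markers overlapped, as did the shares of pallial and subpallial spots. The summed subpallial marker genes had 1512 and 1195 CPM in building males, against 1029 and 876 CPM in control males, and the pallial ones 1169 and 1078 CPM in building males, against 1234 and 1294 CPM in control males. Pallial spots made up 43.6% and 41.4% of spots in building males, against 40.7% and 48.7% in control males. For subpallial spots the shares were 29.6% and 38.8%, against 31.5% and 22.0%. The part of section makeup in the jund and gadd45b values was not tested.

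**Figure D2:**
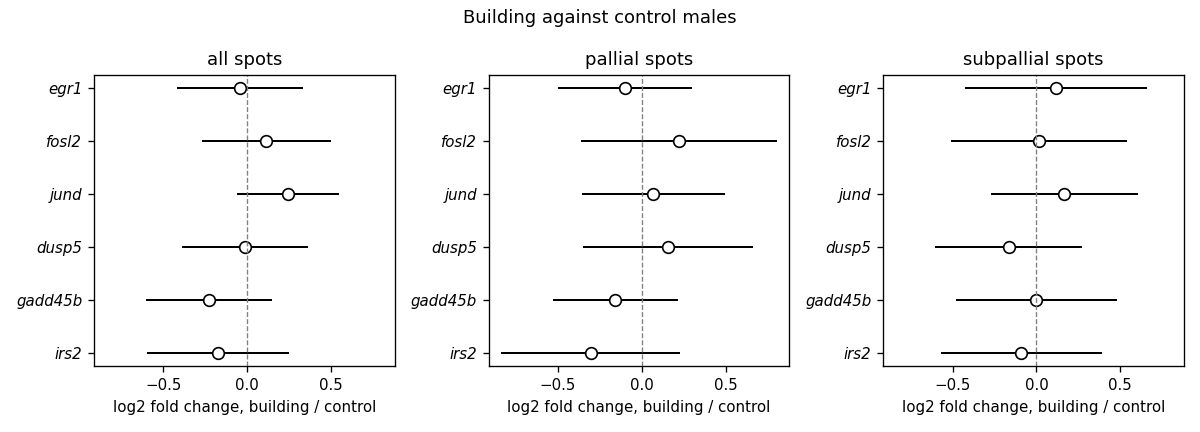
Log2 fold change of building over control males (x axis) for the 6 genes in all, pallial and subpallial spots, with 95% intervals from edgeR (lines) over 2 males a group. Open points mark adjusted p of 0.05 or more. Every interval includes 0, and that of jund over all spots runs from -0.05 to 0.54.

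To compare the groups within like tissue, spots were assigned to regions by marker genes, none of them among the 6. Spots with at least 500 UMIs were scored for pallial genes (the glutamate transporter genes slc17a6 and slc17a7, bhlhe22, tbr1, eomesa, emx3 and neurod6b) and for subpallial genes (the GABA synthesis genes gad1b and gad2, dlx2, dlx5, six3, sp9, isl1, lhx6 and nkx2-1). A difference of scores above 0.25 either way made a spot pallial or subpallial, and the rest intermediate. This gave 2923 pallial (43.3%), 2149 subpallial (31.8%) and 1552 intermediate spots (23.0%), while 127 spots (1.88%) were too shallow.

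In pallial spots, 0 of 14202 genes (0%) passed edgeR's test between building and control males, with 295 at an unadjusted p under 0.05 and 8 by DESeq2. In subpallial spots, 0 of 12519 genes (0%) passed, with 155 at an unadjusted p under 0.05 and 4 by DESeq2. In pallial spots jund had 71.9 and 90.3 CPM in building males, against 72.6 and 81.8 CPM in control males. In subpallial spots it had 163 and 129.6 CPM in building males, against 130.0 and 128 CPM in control males. Thus the groups overlapped in both regions. In subpallial spots they did so only narrowly, with 129.6 CPM in building male 2 against 130.0 CPM in control male 1. The log2 fold changes were 0.07 (-0.35 to 0.49) in pallial and 0.17 (-0.26 to 0.60) in subpallial spots.

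gadd45b had 104 and 122 CPM in pallial spots of building males, against 132 and 121 CPM in control males, a log2 fold change of -0.16 (-0.53 to 0.21). After trimmed mean (TMM) scaling the building males were just below both control males, as for 27.2% of the 14202 genes in either direction, and before it they overlapped. dusp5 had 45.6 and 52.2 CPM in subpallial spots of building males, against 55.9 and 54.2 CPM in control males. It was the only member whose groups were apart there, as for 25.4% of the 12519 genes. Its log2 fold change was -0.17 (-0.60 to 0.27) in subpallial spots and 0.16 (-0.34 to 0.66) in pallial spots.

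The difference between the building effects in the 2 regions was tested as an interaction. It was called for 0 of 13745 genes (0%) by edgeR, with 406 at an unadjusted p under 0.05 and 1 by DESeq2. Among the 6 genes the smallest unadjusted p was that of egr1 (0.175, edgeR, adjusted p = 1), whose building effect was 0.20 lower on the log2 scale in pallial than in subpallial spots (interaction -0.20, -0.51 to 0.11). A difference between regions in the building effect was thus not detectable with these males.

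Region, in contrast, set 4 of the 6 genes apart. gadd45b, dusp5 and fosl2 were higher in pallial than in subpallial spots, jund was lower, and egr1 and irs2 did not pass the test. By edgeR with the male as a block, 22.8% of 12841 genes differed between these regions, 1417 higher and 1516 lower in pallial spots. The members' 4 of 6 was above this share over all genes. A share among genes of like level was not taken. The regions were defined by genes of the same spots, and 2 of 3 neuronal markers were also higher in pallial spots (snap25 by 0.29 and syt1 by 0.27 on the log2 scale), where the summed neuronal markers had 6935 ± 371 CPM, against 5687 ± 244 CPM in subpallial spots (SD, n = 4). Oligodendrocyte markers summed to 301 ± 54.3 CPM in pallial and 553 ± 335 CPM in subpallial spots, with mpz and olig2 lower in pallial spots. Median UMIs per spot were 4364 to 11082 over males in pallial and 2787 to 8719 in subpallial spots. The part of these differences in the results was not tested.

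egr1, the zinc-finger factor, did not pass the test between pallial and subpallial spots. It had 379 and 296 CPM in pallial spots of building males and 357 and 359.8 CPM in those of control males, and 445 and 296 CPM in subpallial spots of building males and 339 and 337 CPM in those of control males. Its mean was 348 ± 35.6 CPM in pallial, 294 ± 38.8 CPM in intermediate and 354 ± 63.9 CPM in subpallial spots (SD, n = 4). The intermediate level was below both others in every male but building male 2, a difference that was not tested. The pallial over subpallial log2 fold change was -0.01 ± 0.07 (SE, 95% interval -0.16 to 0.14, edgeR adjusted p = 0.952), and egr1 was higher in pallial spots in 7 of 13 areas. The interval does not reach the size of the changes of fosl2, jund, dusp5 and gadd45b. It describes sums per male and not single areas, within which the egr1 ratio ran from 0.504 to 2.37 (median 1.08).

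The AP-1 subunits went in opposite directions. fosl2 had 214 and 135 CPM in pallial spots of building males and 141 and 153 CPM in those of control males, against 88.3, 108, 112 and 83.7 CPM in the subpallial spots of the same males. It was higher in pallial spots in all 4 males and all 13 areas. Its log2 fold change was 0.67 ± 0.15 (SE, edgeR adjusted p = 0.00801), and without control male 2 the adjusted p was 0.0737.

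jund had 71.9 and 90.3 CPM in pallial spots of building males and 72.6 and 81.8 CPM in those of control males, against 163, 129.6, 130.0 and 128 CPM in the subpallial spots of the same males. The pallial and subpallial values did not overlap. It fell by 0.76 ± 0.10 on the log2 scale (SE, adjusted p = 0.000493 by edgeR) and was lower in pallial spots in 12 of 13 areas, the exception being the shallow control 1 area C with 21 and 34 UMIs in pallial and subpallial spots. In intermediate spots jund had 87.0 ± 23.3 CPM (SD, n = 4), near its pallial mean of 79.2 ± 8.68 CPM and below its subpallial mean of 138 ± 17.2 CPM.

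dusp5, the ERK phosphatase, had 127 and 93.4 CPM in pallial spots of building males and 86.8 and 106 CPM in those of control males, against 45.6, 52.2, 55.9 and 54.2 CPM in the subpallial spots of the same males. It was higher in pallial spots by 0.96 ± 0.12 on the log2 scale (SE, edgeR adjusted p = 0.000264) and in 12 of 13 areas. Area D of control male 1 was the exception, with 14 UMIs on either side. Its intermediate level of 54.8 ± 9.35 CPM stood beside the subpallial 52.0 ± 4.49 CPM (SD, n = 4), a pair that was not tested.

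gadd45b, the stress-inducible member, had 104 and 122 CPM in pallial spots of building males and 132 and 121 CPM in those of control males, against 48.6, 61.5, 57.0 and 54.2 CPM in the subpallial spots of the same males. Its log2 fold change of 1.10 ± 0.08 (SE, adjusted p = 7.59e-06 by edgeR) was the largest of the 6 in this comparison. It was also the most even across males, whose own log2 ratios ran from 0.98 to 1.21. The level stepped down from 120 ± 11.4 CPM in pallial to 95.1 ± 15.4 CPM in intermediate and 55.3 ± 5.38 CPM in subpallial spots (SD, n = 4). It was higher in pallial spots in 12 of 13 areas.

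irs2, the insulin receptor adaptor, had 51.0 and 35.7 CPM in pallial spots of building males and 54.6 and 49.3 CPM in those of control males, against 43.2, 39.8, 48.1 and 39.7 CPM in the subpallial spots of the same males. The values overlapped, and the log2 fold change was 0.12 ± 0.11 (SE, 95% interval -0.12 to 0.36, edgeR adjusted p = 0.511).

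**Figure D3:**
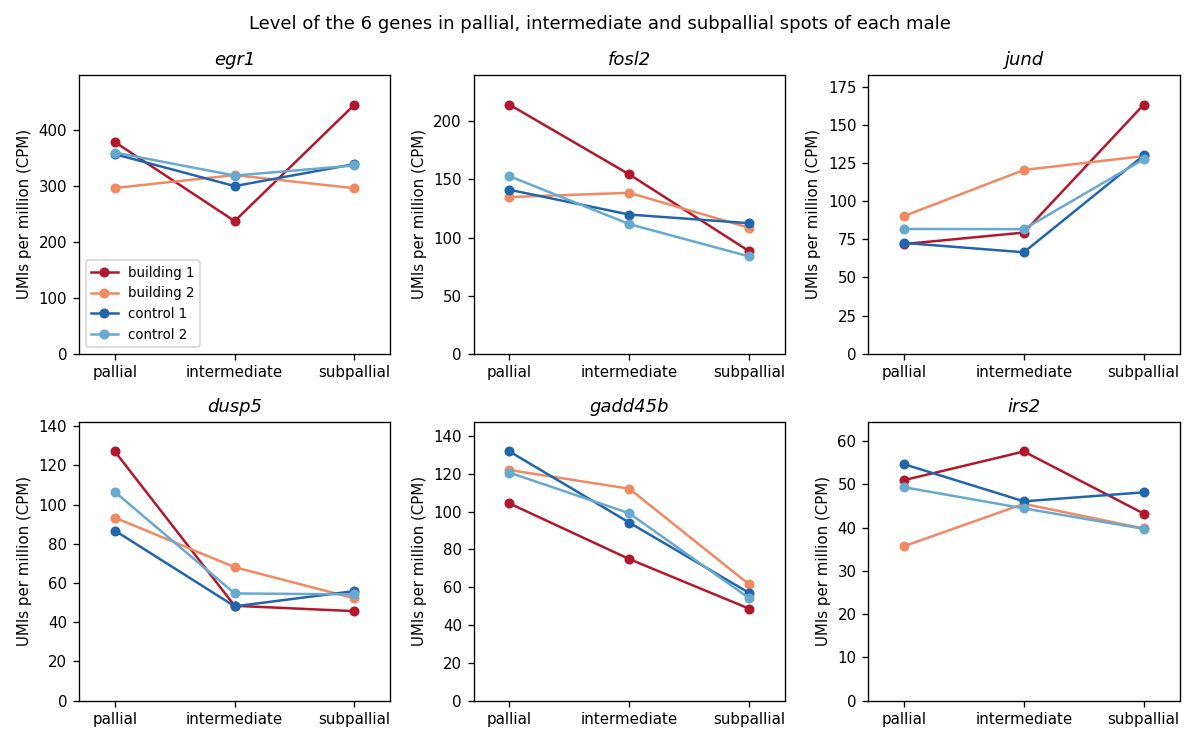
CPM (y axis) of the 6 genes in pallial, intermediate and subpallial spots (x axis), with a line for each male (building in red and orange, control in blues). gadd45b, dusp5 and fosl2 are higher in pallial than in subpallial spots in each of the 4 males and jund is lower in each, whereas egr1 and irs2 lines cross.

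The wider IEG-like list was also split between the regions. Of its 25 genes, members included, 6 were higher and 8 lower in pallial spots by edgeR. Their median log2 fold change was 0.03, against -0.00 over all 12841 genes, of which 22.8% were called. Without the members, 3 of 19 genes were higher and 7 lower (median -0.13). Among the 6 members, 3 were higher and 1 lower (median 0.40). Beside the members, the higher genes were a jun copy (LOC101482945, 1.28), which encodes another AP-1 subunit, itm2c (LOC101486362, 1.08) and the kinase gene plk2 (0.41). The lower ones were both copies of rtn4rl2 (LOC101465305, -0.72, and LOC101486758, -1.67), the nuclear receptor gene nr4a1 (LOC101463795, -1.25), rrad (-1.09) and relatives of egr1, namely egr3 (LOC101482048, -0.71) and both copies of egr4 (LOC101475150, -0.58, and LOC101475431, -0.37). The other gene labelled jun, named by its symbol, had 0.08 ± 0.14 (SE, adjusted p = 0.748), and reads of such copies may be split between them.

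Genes of the members' pathways were counted by list for pallial against subpallial spots, with an all-gene median of -0.00 and 22.8% of all genes called. Nothing particular to the lists is read from their counts. Of 6 AP-1 genes tested by symbol, 1 was higher (fosl2) and 2 were lower, namely jund and jdp2 (-1.10), an AP-1 repressor (list median -0.38). With the jun copy above and both fos copies, 9 genes were tested, of which 2 were higher and 2 lower (median -0.13). Of 9 genes for phosphatases and inhibitors of ERK and related kinases, 3 were higher and 0 lower: dusp10 (1.58), dusp1 (1.27) and dusp5 (median 0.13). Of 13 genes of the ERK cascade and its nuclear targets, rps6ka3 (1.31), map2k1 (0.92), which encodes the kinase that activates ERK, and elk4 (0.62) were higher and srf (-0.49) was lower (median 0.15). These are kinases and transcription factors that act upstream of IEG promoters.

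The other lists are read beside the same 22.8% of all genes. Among 6 stress and GADD45 genes, gadd45b alone was higher and 0 were lower (median -0.01). Of 9 insulin and IGF pathway genes, foxo3 (0.84), shc1 (0.69) and tsc2 (0.45) were higher and gsk3b (-0.50) was lower (median 0.11). Of 13 activity-regulated effector genes, bdnf (2.22), which encodes a neurotrophin, nrn1 (2.17), nr4a3 (1.19), per1 (0.73) and plk2 (0.41) were higher and scg2 (-1.73) and nab2 (-0.38) were lower (median 0.08). nab2 encodes a repressor of EGR proteins.

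Within the pallium, the 20% of pallial spots of each area with the most neurod6b, which encodes a bHLH factor of excitatory neurons, were compared with the other pallial spots. The neurod6b-rich spots (586) had less dusp5, egr1 and gadd45b than the others (2337). These were 3 of the 6 genes, against 10.8% of 11730 genes tested by edgeR. dusp5 had 21.8 and 34.6 CPM in neurod6b-rich spots of building males and 34.6 and 50.2 CPM in those of control males, against 153, 109, 101 and 120.2 CPM in the other pallial spots of the same males. It fell by 1.61 ± 0.14 on the log2 scale (SE, adjusted p = 1.08e-06 by edgeR), a 3.05-fold difference, with no overlap. This stood in 12 of 13 areas, although building male 1 had only 9 UMIs in the neurod6b-rich spots, with a 95% Wilson interval of 11.5 to 41.4 CPM. The mean dusp5 level of neurod6b-rich spots was 35.3 ± 11.6 CPM (SD, n = 4), beside 52.0 ± 4.49 CPM in subpallial spots, a pair that was not tested.

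egr1 had 271 and 219 CPM in neurod6b-rich spots of building males and 312 and 251 CPM in those of control males, against 405, 317, 369 and 387 CPM in the other pallial spots of the same males. It fell by 0.51 ± 0.07 on the log2 scale (SE, adjusted p = 0.000156 by edgeR), in every male and in 12 of 13 areas. gadd45b had 60.6 and 108 CPM in neurod6b-rich spots of building males and 104 and 89.5 CPM in those of control males, against 115, 126, 139.6 and 128 CPM in the other pallial spots of the same males. It fell by 0.44 ± 0.10 (SE, adjusted p = 0.00710 by edgeR), and the adjusted p was 0.0822 without control male 2. fosl2 (-0.22), irs2 (-0.28) and jund (0.05) did not pass the test.

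Of 24 IEG-like genes tested there, 0 were higher and 10 lower in neurod6b-rich spots (median -0.25, against 0.01 over all genes). Beside the members these were a fos copy (LOC101487601, -1.05), gpr12 (LOC101482685, -0.92), dnajb5 (LOC101476226, -0.79), itm2c (LOC101486362, -0.77), sgk1 (LOC101469250, -0.38), an egr4 copy (LOC101475431, -0.28) and adgrb1 (LOC101483178, -0.25). Neuronal markers summed to 6299 ± 433 CPM in neurod6b-rich and 7100.0 ± 354 CPM in other pallial spots, and oligodendrocyte markers to 233 ± 93.3 and 319 ± 63.2 CPM (SD, n = 4). Of 3 neuronal markers tested, 2 were lower in neurod6b-rich spots and 1 was higher. The part of this in the lower members was not tested.

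Between the pallial spots with the most eomesa (541), which encodes a T-box factor of excitatory lineages, and the other pallial spots (2382), 0 of the 6 genes passed edgeR's test, against 13.9% of 12004 genes. Among the 6, 1 had an unadjusted p under 0.05, and DESeq2 called 0. The nearest was gadd45b, with 0.30 ± 0.11 on the log2 scale (SE, adjusted p = 0.0793). Radial glia markers summed to 1406 ± 122 CPM in eomesa-rich and 1239.5 ± 137 CPM in other pallial spots (SD, n = 4). egr1 differed between males there, with 209 and 345 CPM in eomesa-rich spots of building males and 444 and 298 CPM in those of control males. The mean was 324 ± 97.7 CPM, against 355 ± 58.6 CPM in the other pallial spots (SD, n = 4). In the wider list 6 of 24 genes were higher, among them crem (LOC101487706, 0.98), both fos copies (LOC101487601, 0.93, and LOC101487312, 0.46), dnajb5 (LOC101476226, 0.69), adgrb1 (LOC101483178, 0.50) and plk2 (0.36), and 3 were lower, namely both rtn4rl2 copies (LOC101465305, -1.05, and LOC101486758, -0.64) and jun (LOC101482945, -0.51).

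Within the subpallium, the 20% of spots of each area with the most six3 (431), a homeobox gene of the subpallium, had more irs2 and jund than the other subpallial spots (1718). These were 2 of the 6 genes, against 12.3% of 10622 genes called by edgeR. irs2 had 71.7 and 57.7 CPM in six3-rich spots of building males and 67.5 and 47.7 CPM in those of control males, against 34.5, 34.5, 41.5 and 37.1 CPM in the other subpallial spots of the same males. It was higher by 0.67 ± 0.16 on the log2 scale (SE, adjusted p = 0.0123 by edgeR), with no overlap and in 12 of 13 areas. The adjusted p was 0.0852 without building male 2 and 0.0591 by DESeq2.

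jund had 184 and 151 CPM in six3-rich spots of building males and 161 and 170.4 CPM in those of control males, against 157, 123, 119 and 114 CPM in the other subpallial spots of the same males. It was higher by 0.37 ± 0.11 (SE, adjusted p = 0.0421 by edgeR) and in 12 of 13 areas. However, the call was lost in 5 of 7 alternatives, and over all 7 the adjusted p ranged from 0.0304 to 0.255. It was 0.0855 without building male 2, 0.117 without control male 1, 0.255 without control male 2, 0.154 by DESeq2 and 0.0512 with no filter on low counts. egr1 (-0.28), fosl2 (-0.08), dusp5 (-0.15) and gadd45b (-0.05) did not pass.

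In the wider list 9 of 25 genes were higher in six3-rich spots and 0 lower (median 0.20, against 0.01 over all genes). Beside irs2 and jund these were both rtn4rl2 copies (LOC101465305, 1.46, and LOC101486758, 1.42), egr2 (LOC101466115, 1.01), crem (LOC101487706, 0.83), sgk1 (LOC101469250, 0.82) and both egr4 copies (LOC101475431, 0.80, and LOC101475150, 0.41). The six3-rich spots held fewer UMIs of glial markers: oligodendrocyte markers summed to 241 ± 139 CPM in six3-rich and 651 ± 394 CPM in other subpallial spots, microglial markers to 383 ± 42.3 and 809 ± 105 CPM, and radial glia markers to 923 ± 103 and 1358 ± 55.8 CPM (SD, n = 4). Of 3 neuronal markers, 2 were lower there. The sum of the 3 was nonetheless 5874 ± 342 CPM in six3-rich and 5630 ± 228 CPM in other subpallial spots. Most of it was snap25, with 5044 ± 392 and 4482 ± 247 CPM (SD, n = 4). Median UMIs per spot were higher in six3-rich than in other subpallial spots in every male. They were 4132 to 10878 over males in six3-rich and 2664 to 8373 in other subpallial spots. The part of these marker and depth differences in the results was not tested.

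Spots rich in glia were set by the top 10% of a marker score in each area. In radial glia-rich spots (662), 19.6% of 12939 genes differed from the other spots by edgeR, and 2 of the 6 members were lower. fosl2 had 131 and 91.5 CPM in radial glia-rich spots of building males and 119.975 and 91.4 CPM in those of control males, against 161, 128, 130.1 and 133 CPM in the other spots of the same males, a fall of 0.33 ± 0.10 on the log2 scale (SE, adjusted p = 0.0196). jund had 111 and 81.5 CPM in radial glia-rich spots of building males and 46.6 and 65.4 CPM in those of control males, against 106, 112, 92.9 and 94.3 CPM in the other spots of the same males, a fall of 0.39 ± 0.12 (SE, adjusted p = 0.0263). Only building male 1 had more jund in its radial glia-rich spots.

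Both calls were lost in some alternatives, in which the direction was kept. For fosl2 the log2 fold change was -0.28 without building male 2 (adjusted p = 0.169 by edgeR) and -0.28 without control male 2 (adjusted p = 0.164). For jund it was -0.39 without building male 2 (adjusted p = 0.107), -0.37 without control male 2 (adjusted p = 0.121), -0.31 without control male 1 (adjusted p = 0.0782) and -0.42 by DESeq2 (adjusted p = 0.0816). In these spots neuronal markers summed to 5063 ± 114 CPM, against 6602 ± 109.7 CPM elsewhere, and microglial markers to 1717 ± 261 CPM, against 568 ± 47.8 CPM (SD, n = 4). Median UMIs per spot were lower there in every male, at 2859.5 to 7948 over males, against 3146.5 to 9325 elsewhere. The part of these differences in the results of fosl2 and jund was not tested. Of the 25 IEG-like genes, 0 were higher and 9 lower (median -0.21, against -0.02 over all genes), the lowest being an rtn4rl2 copy (LOC101486758, -0.92).

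In oligodendrocyte-rich spots (662), 6.73% of 12788 genes differed by edgeR and 2 of the 6 members were higher. fosl2 had 232 and 143 CPM in oligodendrocyte-rich spots of building males and 151 and 159 CPM in those of control males, against 153, 124, 127 and 127 CPM in the other spots of the same males. It was higher by 0.38 ± 0.10 on the log2 scale (SE, adjusted p = 0.0172 by edgeR) and in 11 of 13 areas. The adjusted p was 0.0595 without building male 2, 0.0943 without control male 2 and 0.0501 with the top 20% of spots.

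dusp5 had 81.2 and 83.6 CPM in oligodendrocyte-rich spots of building males and 83.4 and 146 CPM in those of control males, against 83.2, 73.3, 70.5 and 79.5 CPM in the other spots of the same males. The log2 fold change of 0.47 ± 0.13 (SE, adjusted p = 0.0320 by edgeR) was 0.23 without control male 2 (adjusted p = 0.527), and dusp5 was higher in 6 of 13 areas. It was 0.56 without building male 2 (adjusted p = 0.0507) and 0.43 by DESeq2 (adjusted p = 0.239). Building male 1 had nearly the same dusp5 level in both sets. irs2 was lower in oligodendrocyte-rich spots in 4 of 4 males, with -0.32 ± 0.16 on the log2 scale (SE, adjusted p = 0.273 by edgeR). Microglial markers summed to 1134 ± 169 CPM in oligodendrocyte-rich and 639 ± 18.2 CPM in other spots (SD, n = 4). Median UMIs per spot were lower in oligodendrocyte-rich spots in every male, at 2515 to 7267 over males, against 3190.5 to 9429 in other spots. The part of both was not tested. In the wider list 5 of 25 genes were higher, among them rrad (0.85), a fos copy (LOC101487601, 0.58) and sgk1 (LOC101469250, 0.46), and 3 were lower, namely egr2 (LOC101466115, -0.50), an rtn4rl2 copy (LOC101486758, -0.45) and jun (LOC101482945, -0.39).

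**Figure D4:**
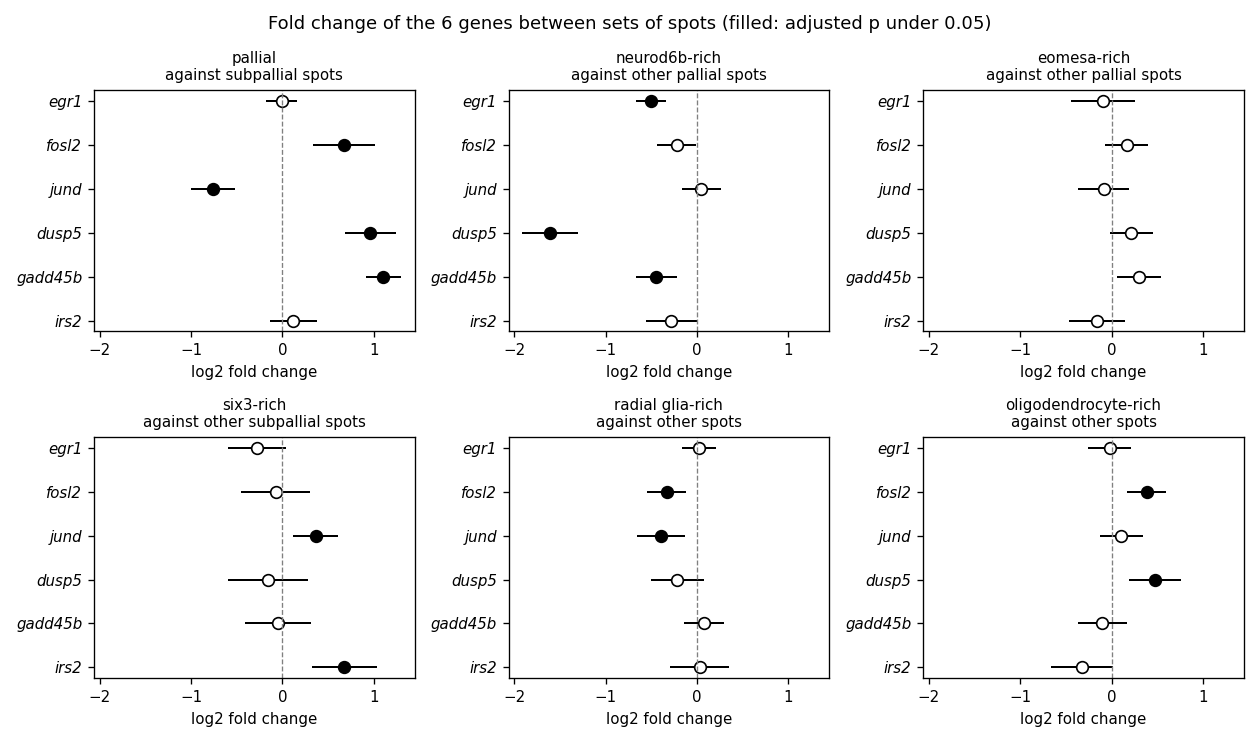
Log2 fold change (x axis) of the 6 genes between sets of spots, with 95% intervals from edgeR fitted to 8 sums (2 sets in each of 4 males, male as a block). Filled points have an adjusted p under 0.05 over all genes tested. The largest differences are dusp5 in neurod6b-rich spots (-1.61) and gadd45b in pallial spots (1.10), and no gene is filled in eomesa-rich spots.

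Whether the 6 genes were found in the same spots was described with Pearson residuals of the counts, which remove the expected effect of a spot's depth. Correlations were taken across the spots of an area, and their mean was formed first within each male and then over the 4 males, with no test, since the spots of an area share a library and neighbouring tissue. Over all spots the 15 pairs had r between -0.04 and 0.19, with a median of 0.04, so most pairs were near 0. The highest pair was egr1 and dusp5 (0.19 ± 0.09, SD over 4 males), with 0.27 and 0.18 in building males and 0.07 and 0.24 in control males. fosl2 and dusp5 followed (0.18 ± 0.05), with 0.21 and 0.16 in building males and 0.12 and 0.23 in control males. egr1 also had 0.11 ± 0.03 with fosl2, 0.11 ± 0.05 with jund and 0.10 with gadd45b. By contrast, jund had -0.01 with dusp5, -0.04 with gadd45b and -0.01 with irs2.

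Part of such values can come from region alone, so they were also taken inside each region. In pallial spots egr1 and dusp5 had 0.26 ± 0.14, fosl2 and dusp5 0.20 ± 0.05, egr1 and fosl2 0.18 ± 0.06, and egr1 and gadd45b 0.15 ± 0.06 (SD, n = 4). The pairs of fosl2 with dusp5 and of egr1 with gadd45b were above 0 in all 13 areas there. For egr1 with fosl2 this held in 12 areas, and for egr1 with dusp5, the highest pair, in 11. In subpallial spots the highest pair was instead egr1 with jund (0.15 ± 0.04), with 0.19 and 0.16 in building males and 0.09 and 0.16 in control males, above 0 in 11 of 13 areas. egr1 and dusp5 had 0.08 ± 0.06 and egr1 and gadd45b -0.03 ± 0.09 in subpallial spots. Whether these values differ between regions was not tested. In spots thinned to 2000 UMIs, Spearman's rho over all spots was lower, at 0.08 ± 0.02 for egr1 and dusp5, 0.07 ± 0.03 for egr1 and fosl2 and 0.06 ± 0.03 for fosl2 and dusp5. For egr1 and jund, taken over all spots rather than the subpallium, it was 0.012 ± 0.028, with -0.029 and 0.032 in building males and 0.024 and 0.019 in control males (SD, n = 4).

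In the thinned spots, 14.7% ± 0.703 of those with an egr1 UMI also had a dusp5 UMI, against 9.74% ± 0.660 of those without. For fosl2 the shares were 25.2% ± 1.57 with and 20.2% ± 3.52 without an egr1 UMI, for gadd45b 19.4% ± 2.73 and 15.0% ± 0.638, for jund 17.0% ± 3.82 and 16.8% ± 2.09, and for irs2 8.31% ± 0.544 and 8.40% ± 1.33 (SD, n = 4). The jund and irs2 shares did not differ beyond the spread between males.

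**Figure D5:**
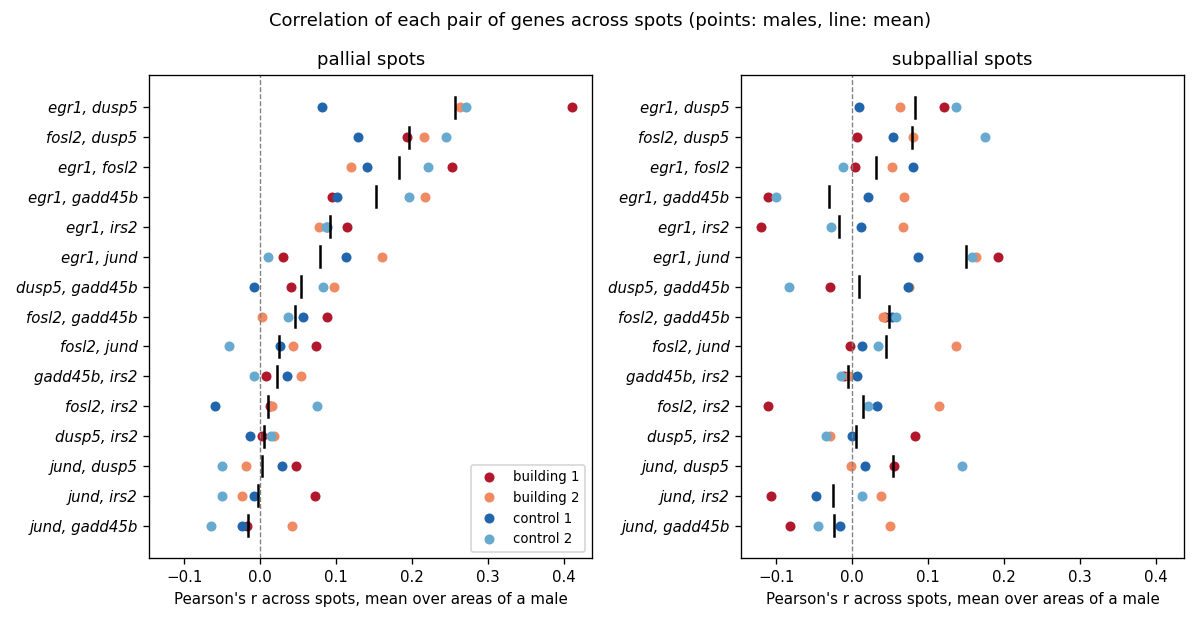
Pearson's r of residuals across spots (x axis) for the 15 pairs of the 6 genes, inside pallial and inside subpallial spots. Points are males (building in red and orange, control in blues), each the mean over its areas, and short lines are means over the 4 males. egr1 with dusp5 lies highest in pallial spots (0.26) and egr1 with jund in subpallial spots (0.15).

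The same measure was used to find the genes distributed most like each member, among 10678 others with a UMI in at least 5% of spots. None of the 6 had another member as its closest gene. For egr1 the closest were lamp5 (0.34 ± 0.14), dgkh (0.33 ± 0.17), LOC101479613 (0.30 ± 0.10), dnajb5 (LOC101476226, 0.30 ± 0.09), tshz1 (0.29 ± 0.12), LOC101475499 (0.29 ± 0.08), LOC101487447 (0.28 ± 0.10), yjefn3 (0.28 ± 0.11), itm2c (LOC101486362, 0.27 ± 0.10) and hivep1 (0.27 ± 0.11). lamp5 encodes a membrane protein of the lysosome family, dgkh a lipid kinase, and tshz1 and hivep1 zinc-finger proteins. All but lamp5 and dgkh, at 12, were above 0 in 13 of 13 areas, and dnajb5 and itm2c belong to the IEG-like list. Within egr1's ranking dusp5 came 52nd and fosl2 244th.

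For fosl2 the closest were itm2c (LOC101486362, 0.21 ± 0.08), LOC101478993 (0.20 ± 0.08) and prdm8 (0.19 ± 0.09), and dusp5 was 5th in its ranking. For jund they were the homeobox genes meis2 (0.19 ± 0.06) and pbx3 (0.18 ± 0.07) and LOC101468775 (0.17 ± 0.08). For dusp5 they were LOC101480126 (0.34 ± 0.16), the bZIP factor gene mafb (0.33 ± 0.15) and the synaptic vesicle gene vamp1 (0.32 ± 0.14). For gadd45b they were prdm8 (0.17 ± 0.07), LOC101475453 (0.17 ± 0.07) and LOC101479169 (0.16 ± 0.06). For irs2 they were rasgef1b (0.14 ± 0.05), the nuclear receptor gene nr2f1 (0.13 ± 0.04) and spa17 (0.13 ± 0.06). The closest gene of irs2 had the lowest value among the closest genes of the members. Whether any of these values sets a gene apart in sparse counts was not tested.

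The 25 IEG-like genes were picked for expression in the same nuclei of other males, and here 23 of them other than the gene itself were ranked for each member. Among the closest 100 of 10678 ranked genes were 10 for fosl2, 8 for egr1, 6 each for jund, dusp5 and irs2, and 4 for gadd45b. The list's median rank among the 10678 ranked genes ran from 213 for fosl2 to 1224 for gadd45b. Most listed genes lay outside the closest 100, a cut that takes only 100 of 10678 genes. The median r with the list was 0.11 for egr1, against 0.00 over all ranked genes, and 0.03 for gadd45b, against -0.00. The study drew the list by expression together with c-fos, egr1 and npas4, so egr1 itself helped to define it.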

How the data were processed

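The deposited files are raw UMI counts, which the authors obtained with Space Ranger 1.3.1 on the M. zebra UMD2a assembly as filtered feature-barcode matrices, and come as 13 matrices, 1 per capture area. The study normalized them for its own analysis with SCTransform, which the files do not hold. Here counts were used as they stand, in the 6751 spots with a UMI. The methods of the study describe fewer matrices and a somewhat smaller number of spots, and the difference was not resolved. Spot positions, images and single-nucleus data were not analysed here.

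UMIs were summed per male and set of spots and fitted with edgeR 4.0.16 (limma 3.58.1, R 4.3.3), using TMM scaling, filterByExpr and the quasi-likelihood test. P-values were adjusted by Benjamini and Hochberg over all genes tested, and genes were called under 0.05. Building and control males were compared with no covariate, and sets of spots with the male as a block. The scripts were tested on simulated data. Alternatives were DESeq2 1.42.0, no filter on low counts, other score cutoffs and shares, region markers without transmitter genes, spots thinned to 2000 UMIs, area C alone, a replicate block, leaving out each male, and leaving out the shallowest area, the last chosen after seeing the data.

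Scores were means over marker genes of log-normalized counts (scale 10000), each gene standardized over all spots. Pearson residuals used an overdispersion of 100, and an area needed 30 spots for a correlation. The matrices held 3 of 4 neuronal markers and all radial glia, oligodendrocyte, microglia and pericyte markers, and 8 of 13 AP-1, 11 of 14 phosphatase, 14 of 21 ERK, 6 of 12 stress, 12 of 21 insulin and 14 of 23 effector symbols.

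Members, lists and alternatives were chosen with earlier results of these data known. Named are the members, the IEG-like genes that passed a test, the 10 genes most like egr1 and the 3 most like each other member, and other genes only where a result turns on them. Pathway genes that passed between regions, and the second jun gene, are named after their values were seen. Names beside LOC numbers come from the study's gene tables. P-values rest on 4 males, and intervals from UMIs cover counting error only. As building male 1 was sectioned onto area C alone, differences between males and between planes of section are mixed for it.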

Additional observations from a re-analysis of the deposited data

Results flagged for a closer look

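Within groups of 4, 5 or 8 capture areas, 3 of 30 groups looked at held an area far from the others by Dixon's test. Chance does so in about 1 in 20 independent groups. These groups share areas, and those of 5 or 8 areas mix males, so the count cannot be set against that rate. jund was highest in building 2 area A, at 133 CPM, both among the 4 areas of building male 2 and among the 5 areas of building males (133 CPM in either group). egr1 was lowest in control 2 area A, at 210.3 CPM among 4 areas.

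In 3 of 30 ratios of a member between sets of spots, both building males went one way and both control males the other. Of all genes tested, 7.52% to 9.71% did so in each of these 5 set comparisons, so that the count is close to the share of all genes. For egr1 in radial glia-rich against other spots, the mean log2 ratio of building minus control males was 0.32. For irs2 in the same spots it was -0.67, and for jund in eomesa-rich against other pallial spots it was 0.40. The difference was not tested in any of the 3, and with 2 males against 2 an exact permutation test could not give a two-sided p below 0.333. Pallial against subpallial spots were not among the 30 ratios, and egr1 split in the same way there. Its log2 ratios were -0.220 and -0.0082 in building males and 0.078 and 0.102 in control males. That difference is the interaction given above, which was not called.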

How the results depend on the processing

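Of the 13 results of members that passed a test, 8 lost it under at least 1 alternative, and none reversed under those run. Results that kept their call throughout were jund, dusp5 and gadd45b between regions and egr1 and dusp5 in neurod6b-rich spots. Of the results of members that did not pass, 27 changed sign under at least 1 alternative. Under an alternative, 3 results that had not passed did pass, with the sign kept. The causes were not tested. Some alternatives leave a smaller number of males or UMIs.

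By DESeq2, 16, 8 and 4 genes were called between building and control males in all, pallial and subpallial spots and 1 for the difference between regions, against 62, 94, 95 and 14 with no filter on low counts. DESeq2 called 472 genes in oligodendrocyte-rich, 721 in neurod6b-rich, 997 in eomesa-rich and 765 in six3-rich spots, and thinned spots gave 1499 between regions. With the replicate number as a block, 0, 0 and 1 genes were called between building and control males in all, pallial and subpallial spots. Labels do not say that the number marks a pair. Over genes, the deviations of building male 1 and control male 1 from their group means had r = 0.229. With 2 males in a group, the other same-numbered pair gives the same value by construction. Building male 1 and control male 1 were also the shallower males of their groups, with medians of 4714 and 2903 UMIs per spot. Building male 2 and control male 2 had 8355 and 9138.5. The part of depth in r was not tested.

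Signs turned as follows, on the log2 scale. In area C alone, building over control was -0.066 for fosl2, 0.016 for dusp5 and 0.011 for irs2. In subpallial spots, gadd45b was 0.0014 by DESeq2, 0.014 with no filter and 0.069 without the shallowest area, a setting chosen after seeing the data. Between regions, egr1 was 0.012 with no filter, 0.0043 with a score difference beyond 0 and 0.12 in thinned spots, and irs2 was -0.068 in thinned spots. In radial glia-rich spots, egr1 was -0.0027 by DESeq2 and -0.063 with no filter, gadd45b was -0.0021 and irs2 -0.051 with no filter, and irs2 was -0.0071 in the top 20% of spots. In oligodendrocyte-rich spots, jund was -0.045 in the top 20%.

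With each male left out in turn, the lone male of a group was assumed to vary like the others. Building over control then gave 0 to 173 called genes in all, 0 to 72 in pallial and 0 to 404 in subpallial spots, and 0 to 223 for the difference between regions. Regions gave 1900 to 3271, radial glia-rich spots 1478 to 2737, oligodendrocyte-rich 344 to 1049, neurod6b-rich 791 to 1085, eomesa-rich 701 to 1677 and six3-rich 725 to 1421. In all spots egr1 ranged from -0.21 to 0.11, fosl2 from -0.055 to 0.27, jund from 0.21 to 0.28, gadd45b from -0.40 to -0.083, dusp5 from -0.13 to 0.13 and irs2 from -0.34 to 0.0011. In pallial spots egr1 ranged from -0.29 to 0.071, fosl2 from -0.14 to 0.53, jund from -0.12 to 0.20, dusp5 from -0.073 to 0.38, gadd45b from -0.28 to -0.059 and irs2 from -0.55 to -0.030. In subpallial spots egr1 ranged from -0.18 to 0.38, fosl2 from -0.19 to 0.23, jund from 0.020 to 0.32, dusp5 from -0.29 to -0.065, gadd45b from -0.21 to 0.16 and irs2 from -0.22 to 0.049. Between regions egr1 ranged from -0.046 to 0.060, and the difference in building effect from -0.34 to 0.67 for fosl2, -0.44 to 0.17 for jund and -0.030 to 0.66 for dusp5. In radial glia-rich spots egr1 ranged from -0.034 to 0.099 and irs2 from -0.14 to 0.22, in oligodendrocyte-rich spots egr1 from -0.25 to 0.087, and in eomesa-rich spots egr1 from -0.26 to 0.10 and jund from -0.17 to 0.085. In six3-rich spots fosl2 ranged from -0.35 to 0.12, dusp5 from -0.33 to 0.18 and gadd45b from -0.20 to 0.059. In neurod6b-rich spots the precision of dusp5 was limited by 9 UMIs in building male 1.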
